A study of Mus musculus with 38 samples.

Results

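Transcripts of 9 genes of the Notch pathway were followed through the differentiation of mouse embryonic stem cells (mESCs) with all-trans retinoic acid (RA). The genes encode 3 receptors (Notch1, Notch2, Notch3), 3 ligands (Dll1, Dll3, Jag1) and 3 repressors of the Hes and Hey family (Hes1, Hes5, Hey1). They were taken by name, 9 of the 23481 genes in the bulk table, and the same names were looked up in the single-cell data, whatever their values. All 9 were found in the bulk table.

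Notch receptors are carried on the cell surface and are activated by ligands on a neighbouring cell. Proteases of the ADAM family and the gamma-secretase complex then cut the receptor, and its intracellular domain joins the DNA-binding protein Rbpj and Mastermind co-activators to switch on targets such as Hes1, Hes5 and Hey1. These targets encode helix-loop-helix repressors that hold proneural genes down and keep neural progenitors dividing. Hes1 also responds to other signals, and its mRNA is known to oscillate in progenitors and in mESCs. Dll3 is an unusual ligand that acts inside the cell and does not activate Notch in trans.

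The study asked how mESCs leave pluripotency under RA and split into an ectoderm-like and an extraembryonic endoderm-like (XEN-like) population. All samples came from 1 line, E14. mESCs were kept in modified 2i medium (a MEK and a GSK3 inhibitor) with LIF, abbreviated 2i/L, and differentiated in N2B27 with 0.25 µM RA, with fresh medium given at 48 h in the longer runs. Bulk libraries were made of mESCs (2 libraries), of whole cultures after 6, 12, 24, 36, 48, 60, 72, 84 and 96 h of RA (1 each), and of cells sorted with antibodies at 96 h into ectoderm-like (CD24+/PDGFRA-) and XEN-like (PDGFRA+/CD24-) cells (2 libraries each). PDGFRA-negative cells were further sorted into CD24 quartiles at 48 h (Q1 to Q4, 1 library each) and CD24 terciles at 72 h (T1 to T3, 1 library each), beside 1 library of PDGFRA+/CD24- cells at 72 h. Sorted cells were also cultured in N2B27 with 20 ng/ml EGF and 10 ng/ml FGF2, the ectoderm-like cells for 5 passages and the XEN-like cells as floating aggregates for 3 weeks (1 library each). Single cells were profiled by SCRB-seq at 9 time points and by SMART-seq2 at 4 time points.

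The promoters of the members that passed the test between the sorted populations are printed first. They show which of these genes carries the sequence to which Rbpj binds. Each is the 250 bases before the transcription start in RefSeq (GRCm38.p6), written 5′ to 3′ on the strand of the gene, and capitals mark the core TGGGAA or its reverse complement TTCCCA.
Hes5 promoter, chr4:154960673-154960922, plus strand: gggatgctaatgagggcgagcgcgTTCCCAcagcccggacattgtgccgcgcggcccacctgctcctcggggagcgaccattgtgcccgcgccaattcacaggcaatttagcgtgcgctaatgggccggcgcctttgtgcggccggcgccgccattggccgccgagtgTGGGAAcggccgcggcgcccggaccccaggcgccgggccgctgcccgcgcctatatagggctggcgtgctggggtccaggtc
Notch2 promoter, chr3:98013288-98013537, plus strand: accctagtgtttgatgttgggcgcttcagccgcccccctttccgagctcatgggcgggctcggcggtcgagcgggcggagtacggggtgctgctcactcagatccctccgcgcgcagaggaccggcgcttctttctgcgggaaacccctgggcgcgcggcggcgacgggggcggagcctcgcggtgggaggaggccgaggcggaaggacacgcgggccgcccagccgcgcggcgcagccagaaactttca
Notch1 promoter, chr2:26503823-26504072, minus strand: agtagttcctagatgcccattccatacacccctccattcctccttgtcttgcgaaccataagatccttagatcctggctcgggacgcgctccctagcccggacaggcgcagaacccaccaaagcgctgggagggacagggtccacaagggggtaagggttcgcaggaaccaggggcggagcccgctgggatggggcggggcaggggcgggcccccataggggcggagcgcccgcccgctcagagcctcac
Jag1 promoter, chr2:137116521-137116770, minus strand: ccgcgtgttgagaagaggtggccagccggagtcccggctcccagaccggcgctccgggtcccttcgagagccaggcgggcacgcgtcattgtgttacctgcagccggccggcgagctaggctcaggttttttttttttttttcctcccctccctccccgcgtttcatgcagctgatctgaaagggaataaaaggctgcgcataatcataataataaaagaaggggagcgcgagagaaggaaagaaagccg

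The Hes5 window held the fuller Rbpj site GTGGGAA on both strands, at 77 to 83 and at 220 to 226 bases before the start. Of all 32851 promoter windows of the same length, 5.42% held this site on either strand and 21.6% held the shorter core, with which it overlaps. RefSeq windows were at hand for 7 of the 9 members (8 windows, since Dll1 has 2). Hes1 and Hey1 were not among them. No window of Notch1, Notch2, Notch3, Dll1, Dll3 or Jag1 held the core. An N-box, CACNAG, the kind of site bound by Hes proteins, was found once each in the Notch1 and Notch2 windows and at 2 places in that of Notch3, against 36.7% of all windows with at least 1. The retinoic acid receptor motif AGGTCA was found once, in 1 of the Dll1 windows, against 14% of all windows. These are matches of letters, not bound sites. In GRCm38 (GENCODE M21) the genes lie on 6 chromosomes, with Hes1 at chr16:30064384-30067796, Hes5 at chr4:154960923-154962371, Dll1 at chr17:15367354-15376872 and Notch2 at chr3:98013527-98150361.

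The 25 bulk libraries held between 1063809 and 2459424 counted molecules (unique molecular identifiers, UMIs), with a median of 1665335. Values are given as CPM, the UMI count scaled to the total of its library, which does not depend on gene length because 1 end of each transcript was counted. The populations were checked with marker genes. All 12 neuroectoderm markers were higher in sorted ectoderm-like cells than in mESCs and all 11 XEN markers were higher in sorted XEN-like cells, but 8 of the 11 XEN markers were also higher in the ectoderm-like cells, where their summed level was 485.2 CPM in replicate 1 and 1779 CPM in replicate 2, against 12050 and 6665 CPM in XEN-like cells. The lists include Cd24a and Pdgfra, the genes of the sorting antigens, whose part in this check follows from the sort. In the ectoderm-like culture 10 of the 12 neuroectoderm markers had a UMI, with Sox1 and Sox3 at 0, and a list of neural crest and mesenchyme genes summed to 3778 CPM. The XEN-like culture held 82016 UMIs of the stomach gene Tff1, against 21 to 88 in the other 24 libraries. In bulk samples, fewer cells of a type and less RNA per cell cannot be told apart. The labels number the sorted libraries as replicates. The methods of the study speak of biological replicates for these and for mESCs, without saying how they were grown. P-values therefore measure the spread between these libraries.

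Most of the 9 genes were expressed at low levels. Hes1 was the most abundant member, with 2009 UMIs over the 25 libraries and a UMI in all of them, and Notch2 followed with 712 UMIs. Notch1 had 239, Jag1 187 and Dll1 115 UMIs. Dll3, Hes5, Notch3 and Hey1 had 59, 58, 35 and 29 UMIs, so that single values of these genes rest on a few molecules. The order of Hes1 and Notch2 held in 24 of 25 libraries.

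Receptors were described first. Notch2, a widely expressed receptor, was at 3.06 and 3.48 CPM in the mESC libraries and at 5.38, 5.29, 8.97 and 8.47 CPM after 6, 12, 24 and 36 h of RA. It was at 26.4 CPM at 48 h and then at 19.2, 17.4, 19.7 and 20.0 CPM at 60, 72, 84 and 96 h. All 5 libraries from 48 h on lay above the 6 earlier ones. The level at 48 h was 8.08-fold that of mESCs (exact 95% interval 4.56 to 15.3) and 3.12-fold that at 36 h (1.73 to 6.02), intervals that cover counting error only. The PDGFRA-negative CD24 quartiles of 48 h lay below this whole-culture level, at 8.02, 12.1, 20.7 and 9.47 CPM from Q1 to Q4. The size of the step at 48 h thus rests on 1 library. Each time point has 1 library, so the time course was tested as a smooth curve through 11 libraries. Of the 9683 genes tested that way, 50.9% changed (25.3% with a higher and 25.5% with a lower fitted level at 96 h). The low-count filter left 5 members (Notch1, Notch2, Dll1, Jag1, Hes1), of which 4 changed, a share of few genes that says little beside 50.9%. Notch2 rose, with a fitted log2 change from mESCs to 96 h of 2.02 (SE 0.42, edgeR quasi-likelihood test with Benjamini-Hochberg adjustment, adjusted p = 0.000102 for the curve).

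Notch1, the best studied receptor of the family, was at 3.94 and 3.48 CPM in mESCs, 2.49 and 2.42 CPM at 24 and 36 h, and 7.72, 6.60, 10.9, 7.78 and 4.61 CPM from 48 to 96 h. The 72 h level was 2.94-fold that of mESCs (1.46 to 5.97 by counting error). Its curve did not pass the test (adjusted p = 0.0912, edgeR), and it did without the 6 h library (adjusted p = 0.0428) or with library totals as the scale (adjusted p = 0.0344). Notch3 had no more than 4 UMIs in any whole-culture library and was not tested.

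**Figure D1:**
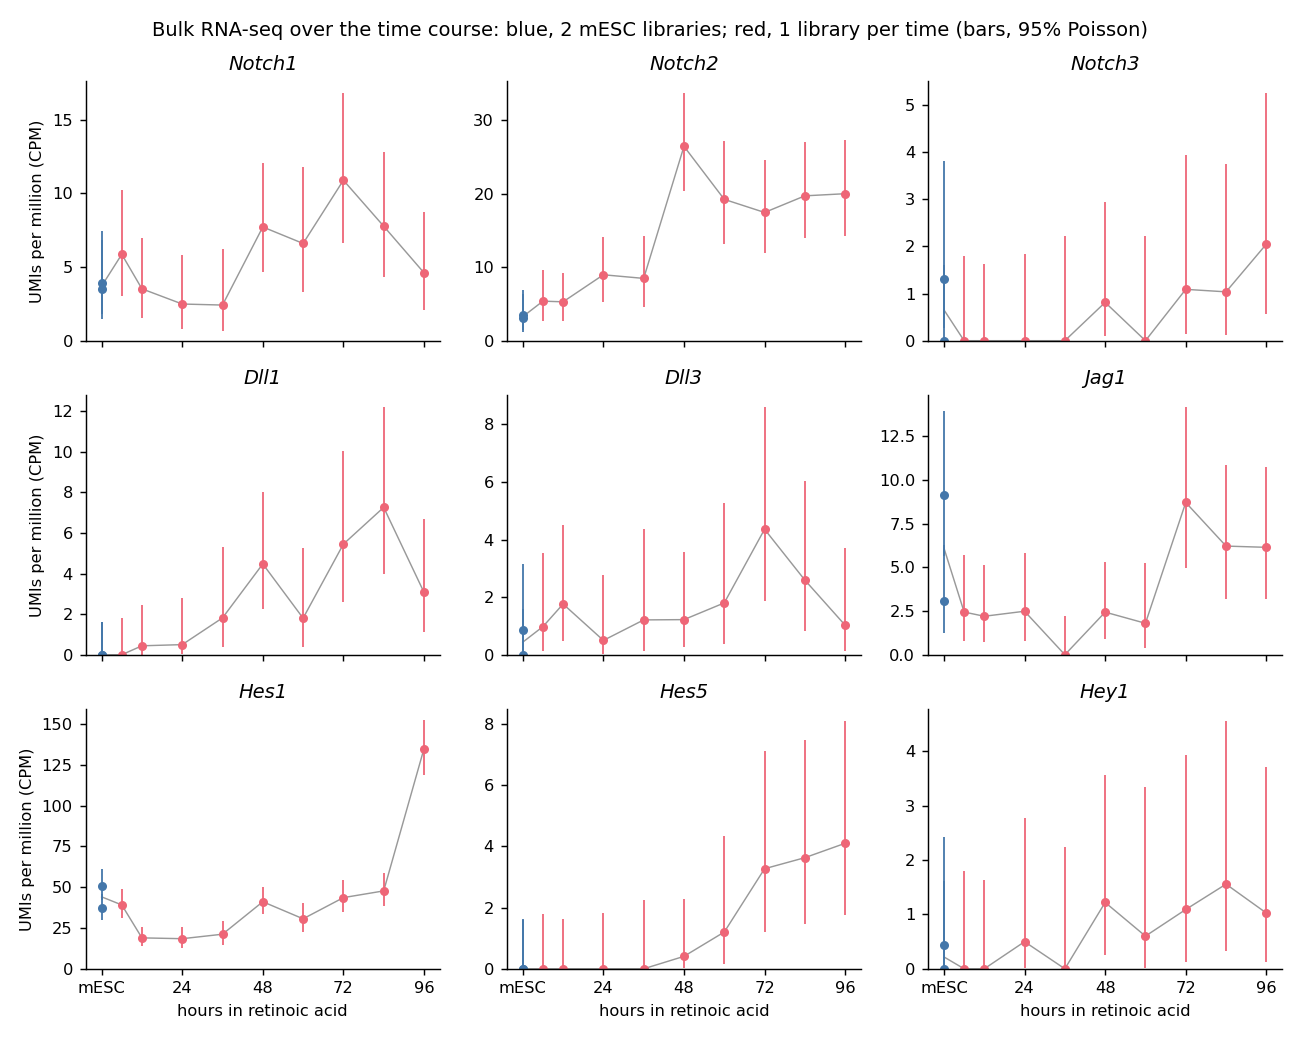
CPM of each member (vertical axis, linear) against hours in RA (horizontal axis); blue points are the 2 mESC libraries, red points 1 whole-culture library each, bars are exact 95% Poisson intervals, and grey lines join the points from the mESC mean. Notch2 stands at 26.4 CPM at 48 h against 3.06 and 3.48 CPM in mESCs, Hes1 is at 18.9 CPM at 12 h and at 134.8 CPM at 96 h, and Dll1 and Hes5 have no UMI in mESCs.

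Among ligands, Dll1, which activates Notch in neighbouring neural progenitors, had no UMI in both mESC libraries and at 6 h. It was at 0.44, 0.50 and 1.82 CPM at 12, 24 and 36 h and at 4.47, 1.80, 5.45, 7.26 and 3.08 CPM from 48 to 96 h. The later libraries were thus the higher ones, with 60 h (3 UMIs) level with 36 h (3 UMIs). The curve of Dll1 passed the test (adjusted p = 0.000566, edgeR). Dll1 passed the low-count filter only through these later libraries, so its call supports no direction. Against a floor of 3 UMIs over both mESC libraries, the level was at least 6.83-fold higher at 48 h, 8.32-fold at 72 h and 11.1-fold at 84 h. Without the 72 h or the 84 h library the gene no longer passed the low-count filter.

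Jag1, a ligand of the Serrate type, was at 3.06 and 9.14 CPM in the mESC libraries, which differed 2.99-fold (1.22 to 8.31). It was at 2.44, 2.20 and 2.49 CPM at 6, 12 and 24 h, had no UMI at 36 h, stood at 2.44 and 1.80 CPM at 48 and 60 h, and at 8.72, 6.22 and 6.15 CPM from 72 h on. The 36 h level was at least 3.37-fold lower than in mESCs. The curve of Jag1 changed (adjusted p = 0.0472, edgeR), a call that was lost without any 1 of 9 libraries (adjusted p up to 0.12 without the 36 h library) and kept without mESC replicate 1 or the 24 h library. Dll3 had between 0 and 8 UMIs in these libraries, the most at 72 h (4.36 CPM), and did not pass the filter.

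Among the targets, Hes1 was lower early and higher at the end. It was at 37.2 and 50.9 CPM in mESCs, 39.1 CPM at 6 h, and 18.9, 18.4 and 21.2 CPM at 12, 24 and 36 h. The levels at 12, 24 and 36 h were 0.430 (0.302 to 0.600), 0.418 (0.286 to 0.596) and 0.481 (0.326 to 0.691) times that of mESCs, more than the 1.37-fold difference between the mESC libraries. Hes1 was back at 41.1 CPM at 48 h, 30.6, 43.6 and 47.7 CPM at 60, 72 and 84 h, and 134.8 CPM at 96 h. The last value was 2.83-fold that at 84 h (2.22 to 3.62) and 3.06-fold that of mESCs (2.54 to 3.69), and 2.36-fold with TMM factors in place of library totals. The curve changed (adjusted p = 0.000361, edgeR, and at most 0.00974 without any 1 library), but its end rests on 1 library. The fitted log2 change to 96 h was 0.93 (SE 0.34) and -0.53 without the 96 h library. The 96 h library also held 12300 CPM of XEN markers, against 12050 and 6665 CPM in the sorted XEN-like libraries; the part of this in the Hes1 level was not tested. Its Hes1 level lay above that of all 4 sorted libraries of the same time, at 1.67-fold that of ectoderm-like cells (1.41 to 1.99) and 1.86-fold that of XEN-like cells (1.55 to 2.24).

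Hes5, a target typical of neural progenitors, had no UMI in mESCs or up to 36 h, and 1, 2, 6, 7 and 8 UMIs at 48, 60, 72, 84 and 96 h, or 4.10 CPM at the end. That is at least 6.26-fold higher at 96 h than in mESCs against the floor of 3 UMIs. Hes5 did not pass the low-count filter of this fit. Hey1 had at most 3 UMIs in any whole-culture library.

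In a count of 2-fold differences over genes with at least 10 UMIs in the sum, in which a side with fewer than 3 UMIs was set to 3 for all genes alike, 2 of 4 members were lower at 12 h (Hes1, Jag1) and 0 higher, where 7.52% of all genes were lower and 7.33% higher. At 48 h 3 of 5 were higher (Notch1, Notch2, Dll1) against 21.9% of all genes, and 1 was lower (Jag1) against 8.98%. At 96 h 2 of 4 were higher (Notch2, Hes1) against 27.2%, and 0 lower against 9.38%. Over all such genes the median log2 ratio was 0.07 at 12 h, 0.29 at 48 h and 0.36 at 96 h, and the changes named here are to be read relative to it.

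The comparison of the sorted populations asked how the pathway differed between the descendants. Ectoderm-like cells held more Notch1, Notch2 and Jag1 transcripts than XEN-like cells, Hes5 had UMIs in the ectoderm-like libraries and none in the XEN-like ones, and Hes1 did not pass the test between them. The fit covered 8945 genes and kept those at 5.31 CPM or more in at least 2 of its 6 libraries. Of the 5 members kept, Hes1 was at that level in all 6 libraries, while Notch1, Notch2, Jag1 and Hes5 would not have been kept without the ectoderm-like libraries, so the counts of members called are given as a description and support no direction. Between XEN-like and ectoderm-like cells 12.7% of all genes differed, 6.98% being higher and 5.71% lower in XEN-like cells. Of the 5 members tested, 4 were called lower (Hes5 with no UMI in XEN-like cells) and 0 higher. Between ectoderm-like cells and mESCs 19.1% of genes differed (9.82% higher and 9.27% lower), and 2 members were called higher (Notch2, and Hes5 with no UMI in mESCs) and 0 lower. Between XEN-like cells and mESCs 22.8% of genes differed (12.3% higher and 10.5% lower), and 1 member was lower and 0 higher. The last 2 comparisons share the mESC libraries.

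**Figure D2:**
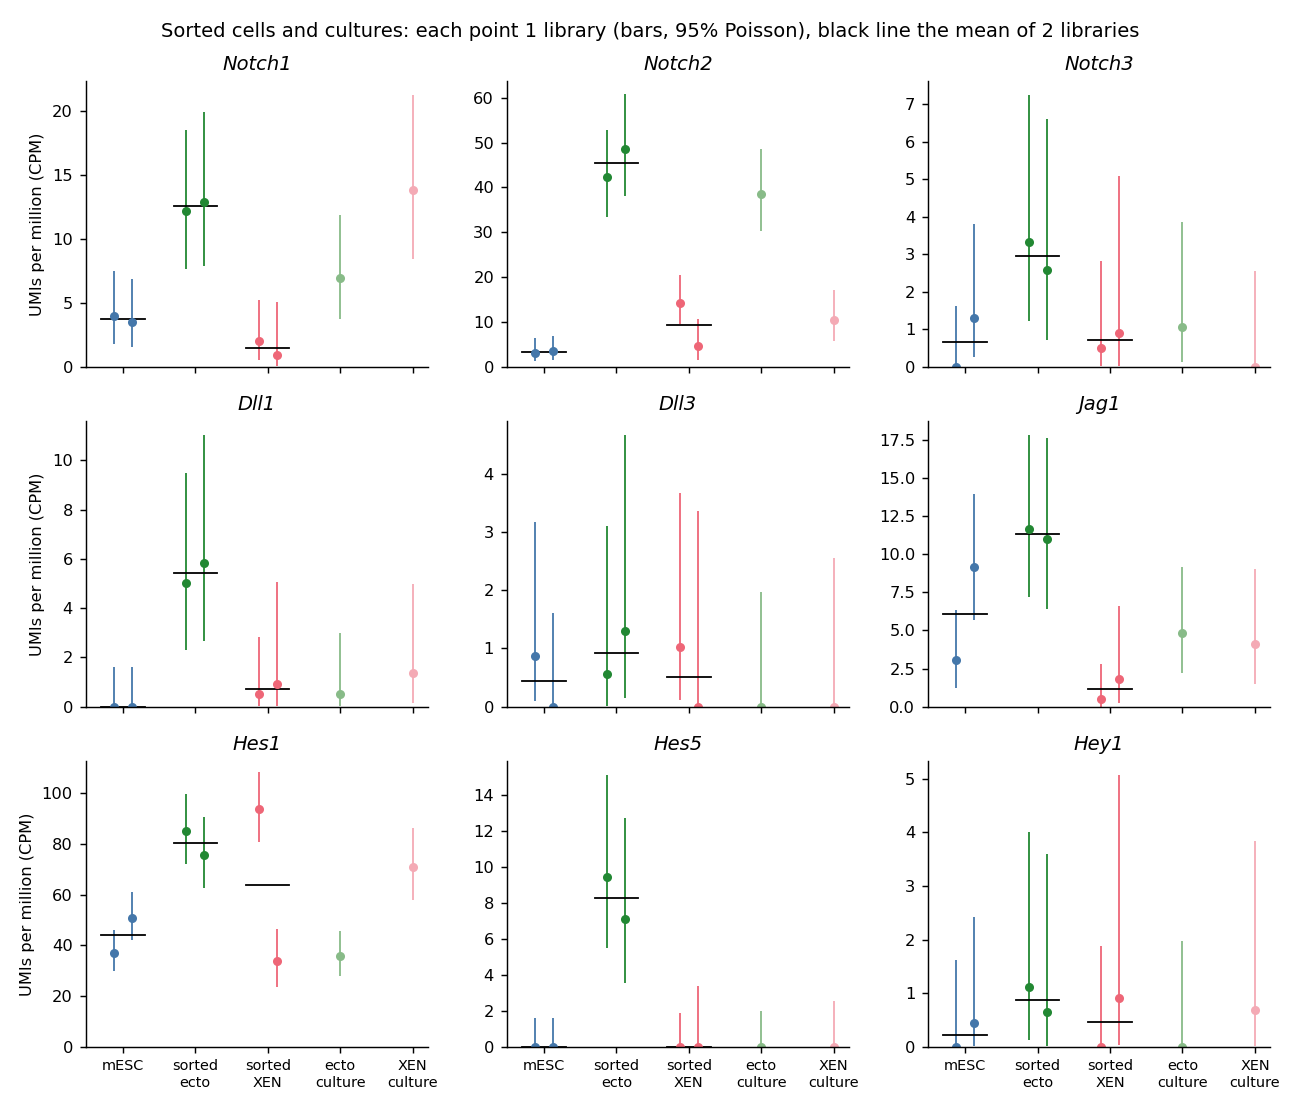
CPM of each member (vertical axis, linear) in mESCs, sorted ectoderm-like (ecto) and XEN-like cells at 96 h, and the 2 cultures; each point is 1 library with its exact 95% Poisson interval, and black lines are means of 2 libraries. The Notch1, Notch2, Jag1, Dll1 and Hes5 points of sorted ectoderm-like cells lie above those of sorted XEN-like cells, while the Hes1 points of XEN-like cells, at 94.0 and 33.7 CPM, enclose those of ectoderm-like cells, at 85.03 and 75.6 CPM.

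Notch2 was at 42.2 and 48.5 CPM in ectoderm-like cells, 14.2 and 4.56 CPM in XEN-like cells and 3.06 and 3.48 CPM in mESCs. No libraries of different groups overlapped, although the XEN-like replicates were far apart. Notch2 rose by 3.46 on the log2 scale in ectoderm-like cells against mESCs (SE 0.47, adjusted p = 0.000516, edgeR) and was lower in XEN-like than in ectoderm-like cells by a log2 change of -2.09 (SE 0.43, adjusted p = 0.00943). The log2 change between XEN-like cells and mESCs was 1.37 (SE 0.53, adjusted p = 0.0867).

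Notch1 was at 12.2 and 12.9 CPM in ectoderm-like cells and at 2.03 and 0.91 CPM in XEN-like cells, where the replicates held 4 UMIs and 1 UMI. It was lower in XEN-like than in ectoderm-like cells (log2 change -2.84, SE 0.61, adjusted p = 0.0114, edgeR). Against mESCs (3.94 and 3.48 CPM) the log2 change of ectoderm-like cells was 1.43 (SE 0.49) and missed the threshold (adjusted p = 0.0645), passing it with library totals as the scale (1.75, adjusted p = 0.031). Notch3, which was not tested, had 6 and 4 UMIs in ectoderm-like cells, 1 in each XEN-like library, and 0 and 3 in mESCs.

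Jag1 was at 11.7 and 10.98 CPM in ectoderm-like cells against 0.51 and 1.82 CPM in XEN-like cells, with no overlap. It was lower in XEN-like than in ectoderm-like cells (log2 change -3.32, SE 0.84, adjusted p = 0.024, edgeR) and lower than in mESCs (log2 change -2.76, SE 0.87, adjusted p = 0.0406). The second call rests on 3 UMIs in XEN-like cells and on mESC libraries that differed 2.99-fold. It was kept without mESC replicate 1 and lost without any other single library (adjusted p 0.0528 to 0.313) and in DESeq2 (adjusted p = 0.157). Dll1, which was not tested, had 9 UMIs in each ectoderm-like library, 1 in each XEN-like library and 0 in both mESC libraries. Summed over libraries, Dll1 was 8.24-fold higher in ectoderm-like than in XEN-like cells (1.97 to 73.3 by counting error) and at least 8.22-fold higher than in mESCs. Dll3 had 3 UMIs in ectoderm-like cells and 2 each in XEN-like cells and mESCs.

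Hes5 was at 9.45 and 7.11 CPM in ectoderm-like cells, from 17 and 11 UMIs, and had no UMI in the XEN-like and mESC libraries. It was at least 8.55-fold higher in ectoderm-like than in XEN-like cells and at least 12.8-fold higher than in mESCs, against a floor of 3 UMIs over the group. Of the members with a promoter window, Hes5 alone held Rbpj sites, 2 of them, while the targets Hes1 and Hey1 had no window to compare. A part of these sites in the Hes5 difference was not tested. Hes1 was at 85.03 and 75.6 CPM in ectoderm-like cells, 94.0 and 33.7 CPM in XEN-like cells and 37.2 and 50.9 CPM in mESCs. The XEN-like replicates lay on either side of the ectoderm-like ones, and the log2 change between the populations was -0.23 (95% interval -0.996 to 0.528, adjusted p = 0.761, edgeR). Against mESCs the log2 change of Hes1 was 0.55 in ectoderm-like cells (SE 0.39, adjusted p = 0.371) and 0.31 in XEN-like cells (SE 0.39, adjusted p = 0.602). Hey1 had between 0 and 2 UMIs in the sorted libraries.

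These calls lean on few libraries. All 4 differences between XEN-like and ectoderm-like cells lost their call without ectoderm-like replicate 2, and none of those that could be tested kept it without ectoderm-like replicate 1 (Hes5 then failed the filter), while Notch2 alone kept it without XEN-like replicate 1 and Jag1 alone without XEN-like replicate 2. DESeq2 kept Notch2 (adjusted p = 0.0256). With no filter on low counts Notch1, Notch2 and Jag1 passed (adjusted p = 0.00138, 3.99e-05 and 0.000489, edgeR). The direction was the same in every one of these settings for Notch1, Notch2 and Jag1. Over all genes, 262 to 657 passed without 1 of the sorted libraries, against 1135 with all of them.

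Within the PDGFRA-negative cells, the CD24 sort asked how transcripts change with the level of this surface marker. The paper calls CD24 a marker of neuroectodermal lineages and, at 48 h, reads it as a sign of a post-implantation epiblast-like state. The list of 7 post-implantation epiblast genes used here did not rise with CD24 at 48 h. Its sums were 115, 99.97, 81.78 and 94.71 CPM from Q1 to Q4. At 48 h Hes1 was at 10.0, 32.1, 31.96 and 44.2 CPM from Q1 to Q4, a Q4 over Q1 ratio of 4.41 (2.50 to 8.29), while at 72 h it was at 38.9, 46.8 and 47.6 CPM from T1 to T3, a ratio of 1.23 (0.830 to 1.82). Notch2 was at 8.02, 12.1, 20.7 and 9.47 CPM from Q1 to Q4, a ratio of 1.18 (0.516 to 2.76), and at 8.55, 21.2 and 46.8 CPM from T1 to T3, a ratio of 5.48 (2.86 to 11.6). Q1 was thus the low library of Hes1 at 48 h, and T3 the high library of Notch2 at 72 h.

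A single slope over the ranked bins of both times was fitted to 7608 genes, of which 7.32% passed (1.71% rising and 5.61% falling with CD24). The filter left 2 members, and Notch2 passed, with a log2 change from the lowest to the highest bin of 1.46 (SE 0.40, adjusted p = 0.0252, edgeR). The call was lost without T1 (0.90, adjusted p = 0.397), T3 (0.72, adjusted p = 0.513) or Q3 (1.40, adjusted p = 0.0511) and in DESeq2 (adjusted p = 0.185). The slope of Hes1 was 0.86 (SE 0.29, adjusted p = 0.089), and it passed in the 48 h bins alone (1.59, adjusted p = 0.0128). The slopes at 72 h less those at 48 h differed by 2.02 for Notch2 (SE 0.68, adjusted p = 0.134) and by -1.35 for Hes1 (SE 0.47, adjusted p = 0.154), so that a change of either slope between the times did not pass the test, which 1.91% of genes did (0.131% with a higher and 1.77% with a lower slope at 72 h). In the same bins the neuroectoderm list summed to 891.5 CPM in Q1 and 1566 CPM in Q4 and to 1297 CPM in T1 and 2498 CPM in T3, and the pluripotency list to 6664 and 4292 CPM and to 4643 and 1314 CPM; the part of these cell mixtures in the slopes was not tested.

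**Figure D3:**
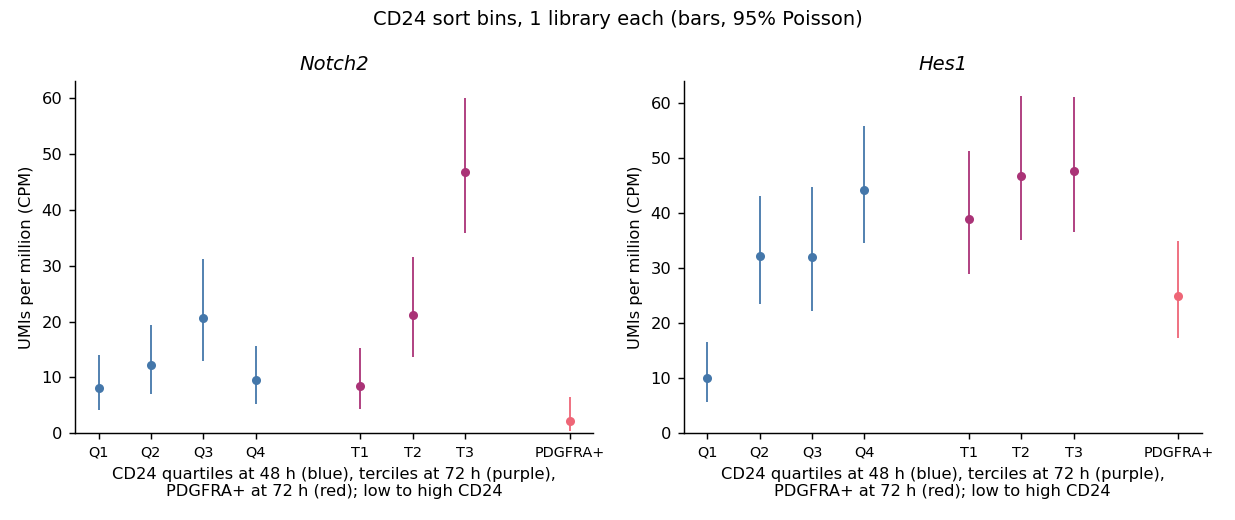
CPM of Notch2 and Hes1 (vertical axes, linear) in CD24 quartiles at 48 h, CD24 terciles at 72 h and PDGFRA+ cells at 72 h; each point is 1 library with its exact 95% Poisson interval. Hes1 is lowest in Q1, at 10.0 CPM, and Notch2 is highest in T3, at 46.8 CPM, and lowest in PDGFRA+ cells, at 2.20 CPM.

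The other members had few UMIs in these bins. Jag1 was at 2.01, 2.86, 3.76 and 4.42 CPM from Q1 to Q4 and at 3.11, 3.53 and 7.68 CPM from T1 to T3, in rank order at both times, with ratios of 2.20 (0.503 to 13.2) and 2.47 (0.712 to 10.8) that counting error alone can give. Dll1 held 8, 10, 4 and 6 UMIs from Q1 to Q4 and 1, 5 and 7 from T1 to T3, and Hes5 had 4 UMIs in T3 and at most 1 in every other bin. By the 2-fold count, 2 of 4 members were higher in Q4 than in Q1 (Hes1, Jag1; 9.31% of all genes) and 2 of 5 in T3 than in T1 (Notch2, Jag1; 6.62% of all genes).

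Among PDGFRA+ cells at 72 h, Notch2 was at 2.20 CPM (3 UMIs) there against 25.8 CPM over the 3 PDGFRA-negative terciles, a ratio of 0.0855 (0.0173 to 0.258). Hes1 was at 24.99 against 44.3 CPM, a ratio of 0.564 (0.378 to 0.820), and Dll3 had 0 against 12 UMIs. Notch1 had 3 against 17 UMIs, a ratio of 0.483 (0.0907 to 1.67), and Notch3 had 1 against 2 UMIs. Of 6 members with enough UMIs, 3 were at least 2-fold lower (Notch1, Notch2, Jag1) and 0 higher, against 17.7% and 9.29% of all genes. Dll1, with 2 against 13 UMIs, was not counted because its 2 UMIs were raised to 3 (ratio as measured 0.421, 0.0461 to 1.86). The Notch2 level was below that of the sorted XEN-like cells at 96 h (14.2 and 4.56 CPM). The summed pluripotency list was at 7169 CPM in this library and at 6267 and 4524 CPM in sorted XEN-like cells.

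Cultured cells were compared with the sorted cells they came from. In the ectoderm-like culture Hes5 had no UMI, at least 5.21-fold lower than in the sorted cells, and Dll1 had 1 UMI, a ratio of 0.0996 (0.00239 to 0.631). Hes1 was at 35.9 CPM, a ratio of 0.445 (0.335 to 0.583), and Jag1 at 4.82 CPM, a ratio of 0.424 (0.1804 to 0.893), while Notch2 stayed at 38.6 CPM, a ratio of 0.854 (0.636 to 1.14). Of 7 members with enough UMIs, 4 were at least 2-fold lower (Dll1, Jag1, Hes1, Hes5) against 15.9% of all genes. Notch3, with 2 against 10 UMIs, was not counted because its 2 UMIs were raised to 3 (ratio as measured 0.358, 0.0382 to 1.68). Relative to Gapdh instead of the total, the Hes1 ratio was 0.811 and that of Notch2 1.56, so the sizes depend on the scale. In the XEN-like culture Notch1 was at 13.8 CPM (20 UMIs), 8.46-fold the level of sorted XEN-like cells (3.08 to 28.9), which made it the library with the most Notch1, close to the sorted ectoderm-like cells. Hes1 was at 71.1 CPM, a ratio of 0.981 (0.769 to 1.24), and Notch2 at 10.4 CPM, a ratio of 0.961 (0.485 to 1.82). Of 3 members with enough UMIs 1 was at least 2-fold higher, against 26.5% of all genes. The neuroectoderm list summed to 1552 CPM in the XEN-like culture, against 611 and 322.7 CPM in sorted XEN-like cells. The part of this in the Notch1 level was not tested. Each culture is 1 library, so these ratios carry no replicate check, and the marker lists above differed between culture and sorted cells.

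SCRB-seq gave the same genes in single cells, from 1 plate per time point. Of 3456 wells, 2448 held more than 2000 UMIs and were kept, between 137 at 96 h and 335 at 6 h, with medians of 3559.5 to 5069 UMIs per cell. The plates use the same 384 well names, so a name does not identify a cell across plates. Values are summed UMIs per 10000 with exact Poisson intervals, which cover counting error only, and no test was run.

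Hes1 was again low early and higher later. It was at 0.653 (0.543 to 0.779) in mESCs, 0.478, 0.240, 0.118 and 0.0941 at 6, 12, 24 and 36 h, 0.519 (0.413 to 0.643) at 48 h, and 0.384, 0.787 and 0.894 at 60, 72 and 96 h. Thinned to 2000 UMIs per cell, a Hes1 UMI was seen in 12.8% of mESCs (9.10% to 17.2%), 1.38% of cells at 24 h (0.377% to 3.49%), 7.94% at 48 h and 10.9% at 96 h, against 24.5%, 4.83%, 15.2% and 30.7% of the unthinned cells. The dip was thus seen in the share of cells as in the level.

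Jag1 was at 0.727 (0.611 to 0.860) in mESCs, 0.123 and 0.120 at 6 and 12 h and 0.00653 at 24 h (1 UMI), and stayed at or below 0.144 until 72 h before 0.578 (0.417 to 0.781) at 96 h. Notch2 was at or below 0.0347 in mESCs and up to 24 h, 0.0982 at 36 h, and 0.512, 0.389 and 0.634 at 48, 60 and 72 h. At 96 h it was 0.110 (0.0475 to 0.217), below the intervals of the 3 plates before, whereas the bulk whole culture of that time held as much Notch2 as at 84 h (20.0 and 19.7 CPM). Dll1 was at most 0.0372 in mESCs and up to 24 h, 0.147 at 36 h, highest at 48 h with 0.369 (0.281 to 0.476), and 0.0138 at 96 h (1 UMI). Notch3 was at 0.0584 in mESCs, 0.0196 at 24 h and 0.275 at 96 h.

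Hes5 had 2 UMIs at 48 h, 2 at 72 h and 6 at 96 h, in 2, 2 and 4 cells, and none in the other plates, where 0 of 282 mESCs allows a share of up to 1.06% of cells with a UMI, which is no limit on the share of cells that express the gene. A UMI of any member was found in 50% of mESCs, 10.3% of cells at 24 h and 50.4% at 96 h, without thinning. The 24 h plate had the lowest median depth, at 3559.5 UMIs, which was not tested as a part of its low share.

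**Figure D4:**
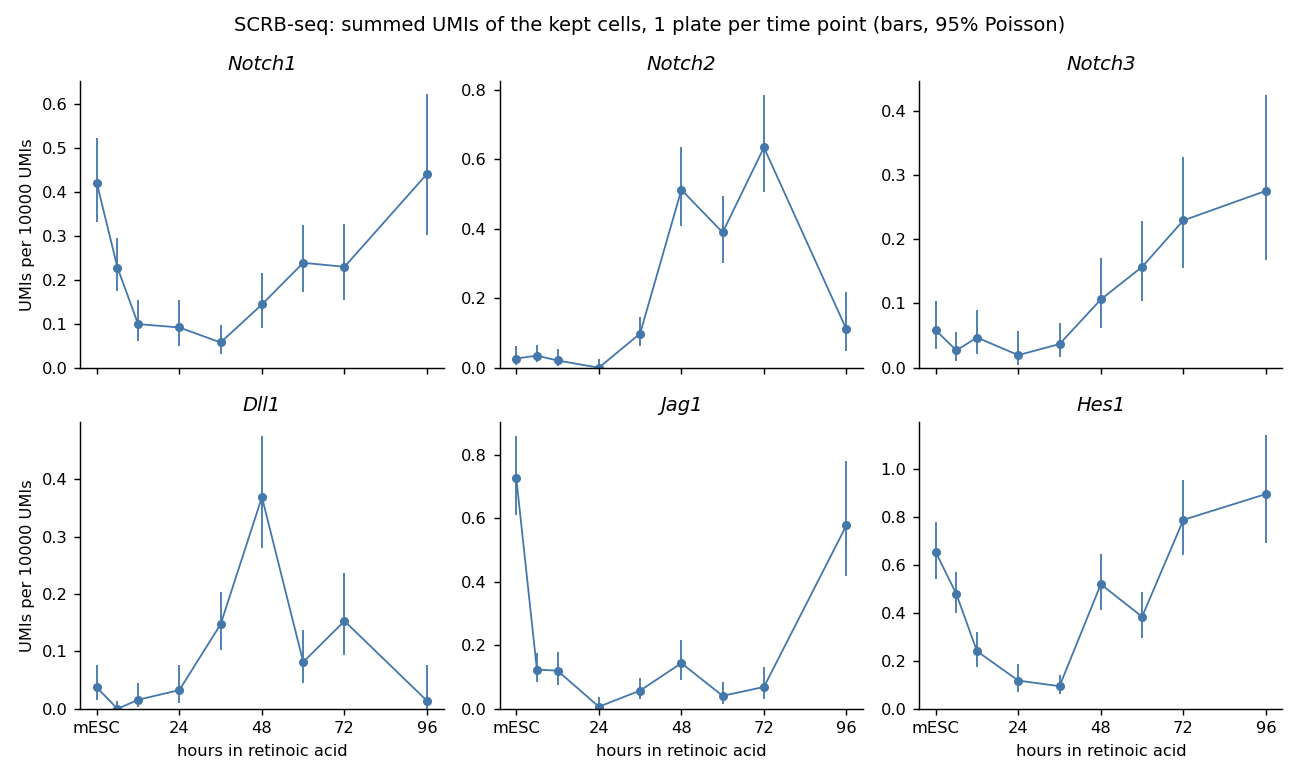
SCRB-seq level of 6 members (vertical axes, UMIs per 10000 summed over the kept cells, linear) against hours in RA, 1 plate per point, with exact 95% Poisson intervals. Hes1 is at 0.653 in mESCs, 0.0941 at 36 h and 0.894 at 96 h, and Notch2 is at 0.634 at 72 h and 0.110 at 96 h.

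SMART-seq2, which reads full-length transcripts, covered 339 cells (82 mESCs and 86, 89 and 82 cells after 12, 24 and 48 h of RA). Values are RPKM, read counts corrected for transcript length and library size, scaled to the same total per cell, and a gene is called seen above 1. Depth is unknown and each time is 1 sample of cells, so shares have exact binomial intervals and no test. Notch2 was seen in most cells, 76.8% of mESCs (66.2% to 85.4%), 77.9% at 12 h, 91% at 24 h and 96.3% at 48 h (89.7% to 99.2%). Its mean level was 27.3 RPKM in mESCs and 27.3 RPKM at 48 h, with medians of 21.45 and 18.16 RPKM. The higher level of Notch2 at 48 h in bulk and SCRB-seq was thus not seen in the SMART-seq2 level, only in the share of cells. Notch1 was seen in 70.7%, 61.6%, 51.7% and 62.2% of cells and Notch3 in 11.6% to 22%.

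Hes1 was seen in 78% of mESCs (67.5% to 86.4%), in 31.4% at 12 h and 29.2% at 24 h (20.1% to 39.8%) and in 64.6% at 48 h (53.3% to 74.9%), with mean levels of 28.9, 8.15, 9.65 and 34.03 RPKM. The early dip of Hes1 was therefore found by all 3 methods. Dll1 was seen in 0 of 82 mESCs, 1 of 86 cells at 12 h, 13.5% at 24 h and 34.1% at 48 h (24% to 45.4%). Jag1 was seen in 52.4%, 19.8%, 23.6% and 32.9% of cells, Dll3 in 17.4% to 31.7% and Hey1 in at most 7.32%. Hes5 was listed at 0 in all 339 cells.

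**Figure D5:**
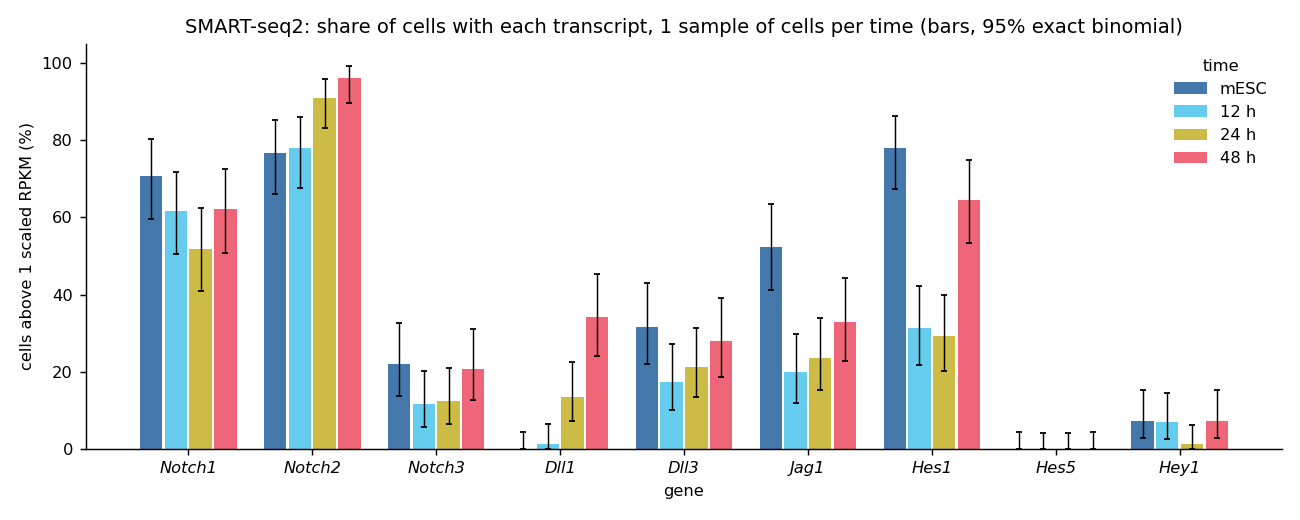
Share of SMART-seq2 cells with more than 1 scaled RPKM (vertical axis, percent) for each member in mESCs and after 12, 24 and 48 h of RA; lines on the bars are exact 95% binomial intervals. Hes1 stands at 78%, 31.4%, 29.2% and 64.6%, Notch2 at 96.3% at 48 h, and Dll1 at 0% in mESCs and 34.1% at 48 h.

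Receptors and ligands were often seen in the same cell. At least 1 of the 3 receptors was seen in 93.9%, 87.2%, 95.5% and 100% of cells in order of time, and at least 1 of the 3 ligands in 67.1%, 36%, 49.4% and 65.9%. Both were seen together in 62.2% of mESCs, 33.7% of cells at 12 h, 46.1% at 24 h and 65.9% at 48 h. At 48 h Dll1 and Jag1 were seen together in 13 of 82 cells and Dll1 and Hes1 in 19, and the Pearson correlations of their log2 levels over these cells were 0.170 and -0.00757, too weak to be read in data with so many zeros.

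The 82 cells at 48 h were also ordered by their own Cd24a mRNA into 4 groups of 20 or 21 cells, a division chosen after the values were seen. From the lowest to the highest group Notch1 was seen in 38.1%, 66.7%, 60% and 85% of cells and Hes1 in 38.1%, 81%, 70% and 70%. Notch2 was seen in 90.5% to 100% and Dll1 in 33.3%, 38.1%, 45% and 20%. The division was chosen with the values known and the cells were not sorted on PDGFRA, so it cannot test the bulk Q1 value. The group lowest in Cd24a had the lowest share of cells with Hes1. Its mean Hes1 level was also the lowest, but by less than the standard deviation between cells in any group. The same group was the highest in the pluripotency marker Zfp42. Its Zfp42 mean was 119.7 RPKM, against 20.97 RPKM in the group highest in Cd24a. The part of this in the Hes1 share was not tested.

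The rest of the pathway was read from a list of 64 other genes, most of which had too few UMIs for the fits. In the time course 34 were tested, 11 rose and 7 fell, against 25.3% and 25.5% of all genes. Of the proteases 8 were tested and 5 were called with a higher fitted level at 96 h. Among them was Adam10, which cuts the receptor after ligand binding. It was at 13.1 and 15.7 CPM in mESCs and 54.9 to 68.2 CPM from 48 h on (fitted log2 change 1.48, SE 0.36, adjusted p = 5.74e-05, edgeR). Another was the gamma-secretase subunit Aph1b (2.41, SE 0.84, adjusted p = 0.00418, edgeR). Aph1b passed the low-count filter through the later libraries, so its call supports no direction. Adam10 was also higher in ectoderm-like (1.76, SE 0.32, adjusted p = 0.00268) and XEN-like cells (2.34, SE 0.32, adjusted p = 0.0004) than in mESCs, as was the subunit Aph1a (1.84, adjusted p = 0.00321, and 1.24, adjusted p = 0.0252).

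Among nuclear partners 13 were tested in the time course, of which 3 rose and 4 fell (25.3% and 25.5% of all genes). Maml3, a Mastermind co-activator, had no UMI in mESCs or up to 36 h and was at 3.25, 2.40, 4.36, 8.30 and 5.13 CPM from 48 h on (adjusted p = 0.000556, edgeR), at least 12.7-fold higher at 84 h than in mESCs. Maml3 passed the low-count filter only through these later libraries, so its call supports no direction. The acetyltransferase Kat2b fell, from 11.4 and 20.5 CPM in mESCs to 5.64 CPM at 96 h (log2 change -1.78, SE 0.48, adjusted p = 3.39e-05, edgeR). It was also called lower in both sorted populations than in mESCs (log2 changes -3.41 and -1.92, adjusted p = 0.00446 and 0.0348, edgeR). Kat2b would not have been kept in the fit of the sorted cells without the mESC libraries, so the calls of that fit support no direction. Rbpj itself, the DNA-binding partner of Notch, was the most abundant of these genes. It was at 339.9 and 279.9 CPM in mESCs and at 764.6 CPM at 24 h before 225.5 CPM at 96 h, and fell with CD24 from 1578 CPM in Q1 to 1159 CPM in Q4 and from 1004 CPM in T1 to 597.9 CPM in T3 (log2 change -0.65, SE 0.12, adjusted p = 0.00113, edgeR). It was the only 1 of 20 listed genes tested that passed there. The whole culture at 48 h, at 583.1 CPM, lay below all 4 quartiles sorted from such cultures, so levels were not compared between those sets of libraries. Processed copies of Rbpj in the mouse genome can share its reads.

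Of the Deltex genes, which encode ubiquitin ligases of the Notch receptor, Dtx1 fell and Dtx4 rose. Dtx1 was at 11.8 and 16.5 CPM in mESCs and 0 at 96 h (adjusted p = 7.76e-07, edgeR), at least 9.22-fold lower, and had no UMI in either sorted XEN-like library. Dtx4 had 0 UMIs and 1 UMI in mESCs and was at 13.5 CPM at 84 h (adjusted p = 7.25e-06). In the time course Dtx1 passed the low-count filter through the earlier libraries and Dtx4 through the later ones, so these calls support no direction. Dtx4 was at 18.9 and 18.7 CPM in ectoderm-like and at 2.03 and 0 CPM in XEN-like cells (log2 change -3.75, SE 0.74, adjusted p = 0.0078). It would not have been kept in that fit without the ectoderm-like libraries. Dtx4 and the co-repressor Tle4 (log2 change -1.36, SE 0.35, adjusted p = 0.0258) were the 2 of 29 listed genes tested that differed between the sorted populations, both lower in XEN-like cells, where 12.7% of all genes differed. The median log2 change of the 29 genes was -0.23, against -0.06 over all genes tested. Between ectoderm-like cells and mESCs 4 of the 29 were higher and 2 lower (9.82% and 9.27% of all genes), and between XEN-like cells and mESCs 4 were higher and 4 lower (12.3% and 10.5% of all genes).

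Over the 25 libraries, the genes whose log2 levels followed those of Notch2 most closely among 8052 genes were Map3k12, Smad5 and Zfp266 (Pearson r 0.909, 0.898 and 0.889). For Hes1 they were Qk, the co-repressor gene Tle3 and Nsun6 (r 0.837, 0.832 and 0.783). The correlation between Notch2 and Hes1 was 0.435. These are descriptions over libraries that share time points and sorts, and carry no test.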

How the data were processed

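Bulk RNA was measured in 25 libraries and single cells on 9 SCRB-seq plates and in 4 SMART-seq2 sets. For bulk and SCRB-seq the authors used BWA 0.7.4, with RefSeq transcripts of the mouse (mm10) as the target, and counted each UMI once per gene, so the deposited values are raw UMI counts at 1 end of the transcript. SMART-seq2 values were deposited as RPKM, made by the authors with TopHat and Cuffnorm (versions not given in the sources used here). They were scaled here to 1 total per cell, and values below 1 written with a decimal comma were read as numbers. Of the bulk counts, 3 values of 2 genes stored as text, and 4 rows with repeated names, were left out, which left 23475 genes.

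Bulk counts were tested with edgeR 4.0.16 (R 4.3.3; quasi-likelihood F test, TMM factors, filterByExpr, Benjamini-Hochberg adjustment over all genes tested, threshold 0.05). The 6 mESC and sorted libraries shared 1 fit, the 11 libraries of the time course a natural spline of time with 3 degrees of freedom (mESCs placed at 0 h), and the 7 CD24 libraries a slope over bin rank with time as a term. Ratios between single libraries or summed groups have exact conditional 95% intervals for counting error. A group with no UMI was set to a floor of 3 UMIs for a bound. In counts of 2-fold differences any side with fewer than 3 UMIs was set to 3, for members and all genes alike. With 2 libraries against 2, an exact permutation test of a single gene cannot go below p = 0.333. Of the SCRB-seq wells, those above 2000 UMIs were used, without a doublet caller, and thinned to 2000 UMIs for shares of cells. DESeq2 1.42.0, other scalings, filters, curves and thresholds, and leaving out each library, were the alternatives. The fits were tested on simulated data. In the sorted comparisons, in the order ectoderm-like and XEN-like against mESCs and XEN-like against ectoderm-like, they recovered 10.4%, 16.4% and 2.99% of 2-fold changes. For 4-fold changes the shares were 67.2%, 55.2% and 74.6%. The time course recovered 22.4% of 2-fold changes and the CD24 slope 44.8%. The simulation changed 67 genes for each of these sizes of change, drawn at random over all levels of expression. The real fits called more genes, and most members had low counts, so these shares are only a rough guide to the members. Within that limit, a missed threshold says little about changes of 2-fold. Other steps used Python 3.11.15, numpy 2.4.6, pandas 2.3.3, scipy 1.17.1 and matplotlib 3.10.9.

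All 9 members are named. Of the other pathway genes, those named are taken from the up to 10 per comparison with the largest log2 change that passed the test and had at least 10 counts in every library of 1 group. Rbpj over time, Hey2 and Zfp42 were chosen with their values already known. Like patterns are the 3 genes with the highest correlation of log2(CPM + 1), for members with a mean of at least 10 UMIs. The members and lists were chosen with earlier results of these data known.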

Additional observations from a re-analysis of the deposited data

How the results depend on the processing

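The sorted libraries share replicate numbers, and the difference between replicates 1 and 2 correlated at r = 0.333 over genes between ectoderm-like and XEN-like cells, but 2 pairs share only a number. With a replicate block 1973, 2400 and 1338 genes passed for ectoderm-like cells against mESCs, XEN-like cells against mESCs and XEN-like against ectoderm-like cells, in place of 1707, 2042 and 1135, and the number of members lower in XEN-like cells than in mESCs went from 1 to 0 (Jag1, adjusted p = 0.0525, edgeR). The other member calls of these comparisons were on the same side with the block.

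DESeq2 passed 1084 genes for ectoderm-like cells against mESCs, 704 for XEN-like against ectoderm-like cells (1 member), 323 for the CD24 slope (0 members) and 39 for the difference of slopes, and 0 members for XEN-like cells against mESCs. With library totals as the scale 0 members passed for XEN-like cells against mESCs and 90 genes for the difference of slopes. That scale moved the median log2 change of all genes by 0.32, 0.21 and -0.10 in the sorted comparisons and by 0.38 in the time course. With no filter 2 members passed the CD24 slope, and 333 genes did in the 72 h bins alone.

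Leaving out 1 library at a time gave 862 to 1748 genes (1 to 3 members) for ectoderm-like cells against mESCs, 1265 to 1953 (0 to 1) for XEN-like cells against mESCs, 262 to 1370 (0 to 4) for XEN-like against ectoderm-like cells, 4093 to 5218 (2 to 4) for the time course, 298 to 516 (0 to 1) for the CD24 slope and 28 to 149 (0 to 0) for the difference of slopes. Directions turned for Jag1 in ectoderm-like cells against mESCs (log2 change -0.056 without mESC replicate 1, up to 1.57 without mESC replicate 2), and for Hes1 in XEN-like cells against mESCs (-0.45 without XEN-like replicate 1 to 0.77 without XEN-like replicate 2), in XEN-like against ectoderm-like cells (-1.002 without XEN-like replicate 1 to 0.23 without XEN-like replicate 2) and at the fitted end of the time course (-0.53 without the 96 h library to 1.201 without mESC replicate 2). With all libraries the fitted end of Hes1 alone of these 4 had passed (adjusted p = 0.0437, edgeR). Fewer libraries leave fewer degrees of freedom, and other causes were not tested.

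Of 323 values of member tests under all alternatives 265 kept direction and side of the threshold, 46 lost a call, 8 gained 1 and 4 turned. The Notch2 call in ectoderm-like cells against mESCs and the Notch2 and Hes1 curves were never lost. Of 243 SCRB-seq values 40 moved, 37 of them on omitting the thinning, and of 72 SMART-seq2 values 1 moved. Depth limits Notch3, Dll3, Hes5 and Hey1 most, for which a single library rarely held more than 10 UMIs.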

Other observations

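Outside the 9 genes, the family showed further differences in single libraries. Hey2, a repressor related to Hey1, was at 25.5 CPM in the XEN-like culture (37 UMIs) and had at most 2 UMIs in each of the other 24 libraries. Notch4, a receptor best known from blood vessels, was at 0.87 and 3.48 CPM in mESCs, 9.29 CPM at 6 h and no more than 2.03 CPM from 48 h on, and its curve passed the test (adjusted p = 0.0126, edgeR). Dlk1, a ligand that lacks the domain needed to activate Notch, had no UMI in mESCs and was at 8.17 CPM at 72 h (adjusted p = 0.000962). Dlk1 passed the low-count filter through the later libraries, so its call supports no direction. It was at 7.22 and 3.23 CPM in sorted ectoderm-like cells, 14.99 CPM in their culture, and had no UMI in the sorted XEN-like cells.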
